A study of Danio rerio with 48 samples.

Results

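The data are the 24 libraries made from heads of zebrafish (Danio rerio) larvae at 4 days post fertilisation (dpf), of 48 libraries in all, read as a concentration series of perfluorohexanesulfonate (PFHxS), a fluorinated surfactant of the PFAS family. All columns of the count table labelled as 4 dpf were taken, and each gene was described by its slope against the concentration and by the order of its group means. Each group held 6 libraries: the vehicle with no PFHxS, called DMSO here, and PFHxS at 7.87, 14 and 25.1 µM, given as the potassium salt. All groups, the vehicle included, were kept in 0.4% DMSO from 0 dpf with fresh solution daily, and all larvae came from 1 mixed wildtype stock. Each library was polyA RNA of 15 pooled heads cut off in front of the swim bladder, so every value is an average over larvae. Nothing in the labels says that the pools came from separate clutches, and p-values therefore measure the spread between pools, which may be partly technical.

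PFAS such as PFHxS resemble fatty acids in shape and bind plasma proteins and fatty acid binding proteins. In vertebrate liver they are known to act through nuclear receptors, among them the peroxisome proliferator-activated receptors (PPAR), which turn on fatty acid oxidation, and the pregnane X receptor (PXR), which turns on cytochrome P450 enzymes, conjugating enzymes and export pumps. Larval zebrafish at this age have a working liver, gut and pancreas just behind the head, and a brain and retina that already drive behaviour in light and dark. The title of the series asks which molecular events after PFAS exposure bear on such behaviour.

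The libraries held 17.1 to 39.2 M counts (1 M is 1000000 counts), and levels are given as scaled counts per 1000000 (CPM). Markers of a head were present: the neuron gene elavl3 had a median of 156 CPM and the cartilage collagen gene col2a1a 33848 CPM. Some genes of organs behind the head varied widely between pools. The liver gene tfa ran from 2.59 to 818 CPM, and the pancreas gene cpa5 from 0.945 to 51.9 CPM. Not all did: the intestine gene vil1 ran from 20.4 to 89.1 CPM, a narrower range than that of the muscle gene mylpfa, from 576 to 4664 CPM. The intestine gene apoa4a was at 0 in 12 libraries. The middle groups were the least uniform: the median within-group SD of log2 CPM over 13579 genes was 0.329 in DMSO, 0.573 at 7.87 µM, 0.496 at 14 µM and 0.336 at 25.1 µM. The pool H at 7.87 µM stood apart, with 14.5% of its counts in its 10 most counted genes, and in DMSO pool E had the highest mean level of liver, pancreas, intestine and muscle genes. The columns of the count table fall into a first set of 32 and a last set of 16 over both ages. At 4 dpf the last set holds 4 DMSO pools, none of 7.87 µM, 2 of 14 µM and 2 of 25.1 µM. The labels say that libraries were randomised into sequencing pools but do not name the pool of each library. The split was made on the order of columns. In the column titles no S number recurs within the last set of 16, while each recurs within the first set of 32. Whether the last set is a sequencing pool of its own is not given. Slopes within each set are given beside the results.

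The first question was which genes followed the concentration along a straight line. No gene did so after adjustment: 0 of 20723 tested genes (0%) had an adjusted p under 0.05 by the quasi-likelihood F test of edgeR on all 24 libraries, with Benjamini-Hochberg adjustment, in either direction. At an unadjusted p under 0.05 there were 238 genes (1.15% of those tested), of which 140 (0.676%) had a rising and 98 (0.473%) a falling slope. With no effect in any gene, about 1 of 20 would be under this p, so 1.15% was below the share given by chance. DESeq2 and limma on the deposited quantile values also called 0 genes, with 291 and 350 genes at an unadjusted p under 0.05. Genes are named below only if their symbol is not a clone or placeholder name and their mean log2 CPM is 1 or higher, unless another reason is given: those 10 in each direction with the smallest p, then further ones whose means kept a strict order. All slopes are log2 changes per 10 µM, so that 1 means a doubling over 10 µM. The median standard error (SE) of a slope over all genes was 0.132, so in most genes a slope of about that size was not detectable at this spread between pools. Of the 140 rising genes 12 (8.57%) belonged to the lists of liver, exocrine pancreas or intestine genes, which held 0.594% of all tested genes, and none of the 98 falling ones did. These lists were chosen with earlier results of these data known, so the shares are described and not tested. The count depended on single pools: without DMSO pool E it was 406 and without 25.1 µM pool H 381, of 238 with all pools. With a term for the set of columns 102 rising and 135 falling genes were found, and by limma on the quantile values 152 and 198, so the balance of the 2 directions turned with these choices.

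Of the rising genes within these limits the smallest p belonged to dab2 (chromosome 5, 32323775 to 32338873, GRCz11), which encodes an endocytic adaptor for receptors of the LDL receptor family. The group means of dab2 were 14.4 ± 2.97, 19.5 ± 6.18, 22.1 ± 11.7 and 25.8 ± 7.43 CPM from DMSO to 25.1 µM (SD, n = 6 each). Its pools ran from 10.8 to 18.8 CPM in DMSO, from 12.4 to 44.8 CPM at 14 µM and from 12.9 to 35.3 CPM at 25.1 µM, and at 7.87 µM from pool B, below every DMSO pool, to 26.9 CPM. The group means stood in rising order, and 5 of 6 pools at 25.1 µM lay above every DMSO pool. The slope was 0.32 ± 0.11 (SE, n = 24; unadjusted p = 0.00415, adjusted p = 1 by edgeR), with 0.39 in the first set of columns and 0.14 in the last.

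Further rising genes are grouped here by role and not by the order of p. By p, cel.2, cpa5 and glud1b, described below, came directly after dab2. Some of the rising genes encode enzymes and a pump that handle foreign chemicals. Of these, abcc2 was not among the 10 with the smallest p but was added for its order of means. The gene cyp3a65 (chromosome 1, 59338175 to 59348119), a cytochrome P450 of the CYP3A family and a known target of PXR, had a lowest, median and highest level of 10.7, 17.3 and 62.6 CPM in DMSO, 12.5, 31.6 and 49.4 CPM at 7.87 µM, 8.8, 36.7 and 118 CPM at 14 µM, and 26.8, 50.3 and 128 CPM at 25.1 µM. The median was higher at each step, but DMSO pool E lay above 4 of 6 pools at 25.1 µM, and the groups overlapped. The slope of cyp3a65 was 0.55 ± 0.19 (SE; unadjusted p = 0.00665), and 0.72 without DMSO pool E. The glucuronosyltransferase gene ugt2a4 (chromosome 5, 69926766 to 69948120) had 1.85, 2.44 and 2.95 CPM in DMSO, 0.226, 2.62 and 10.7 CPM at 7.87 µM, 0.583, 4.04 and 11.4 CPM at 14 µM, and 4.69, 6.81 and 8.47 CPM at 25.1 µM. It was the only one of these 10 rising genes in which the end groups did not overlap, while the middle groups spread below and above both. In all, 13 tested genes (0.0627%) had all 6 pools at 25.1 µM above all 6 DMSO pools, and 8 (0.0386%) had them all below. The slope of ugt2a4 was 0.57 ± 0.22 (SE; unadjusted p = 0.0142). The export pump gene abcc2 (chromosome 13, 681628 to 711577), which moves conjugated anions into bile, had group means of 30.2 ± 15.9, 40.4 ± 28.3, 49.2 ± 46.7 and 68.3 ± 37.5 CPM from DMSO to 25.1 µM (SD, n = 6 each), in rising order. Its slope was 0.47 ± 0.19 (SE; unadjusted p = 0.018). The P450 gene cyp2aa1 had means of 1.3 ± 0.453, 1.68 ± 1.28, 2.34 ± 2.18 and 2.97 ± 1.25 CPM in the same order, and a slope of 0.49 ± 0.18 (SE; unadjusted p = 0.0101). The adjusted p of each was 1.

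**Figure D1:**
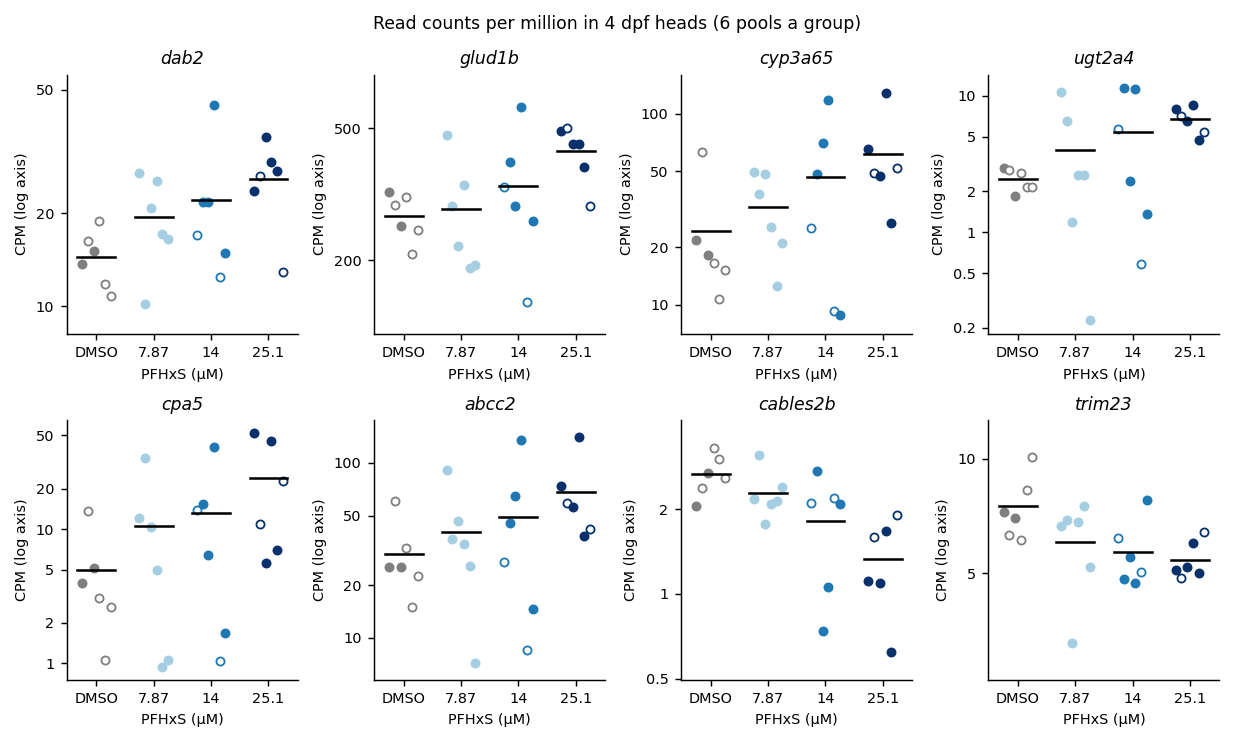
CPM on log axes against PFHxS for 8 genes, with 1 point per pool of 15 heads, 6 pools a group, and a line at the group mean; open points are pools from the last 16 columns of the count table. The 6 pools of ugt2a4 at 25.1 µM sit between 4.69 and 8.47 CPM, above all DMSO pools, and those of cables2b between 0.62 and 1.91 CPM, below all DMSO pools, while the other genes overlap between the end groups.

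Digestive enzymes had the steepest slopes of these 10 genes. The carboxypeptidase gene cpa5 (chromosome 25, 18459924 to 18470696), made by the exocrine pancreas, had 1.05, 3.5 and 13.7 CPM (lowest, median and highest) in DMSO, 0.945, 7.68 and 34 CPM at 7.87 µM, 1.04, 10.1 and 41.1 CPM at 14 µM, and 5.55, 16.8 and 51.9 CPM at 25.1 µM. All 4 groups overlapped, and 3 of 6 pools at 25.1 µM lay above every DMSO pool. The slope of cpa5 was 0.87 ± 0.29 (SE; unadjusted p = 0.00566, adjusted p = 1). The carboxyl ester lipase genes cel.1 and cel.2 lie side by side on chromosome 21, and reads shared between these close copies may have been split in counting. Their slopes were 0.88 ± 0.31 and 1.12 ± 0.37 (SE; unadjusted p = 0.00762 and 0.00459). For cel.2 the group means were 1.18 ± 1.00, 2.63 ± 3.23, 2.85 ± 3.64 and 9.01 ± 11.7 CPM from DMSO to 25.1 µM (SD, n = 6 each), so the SD exceeded the mean in each exposed group.

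Enzymes of intermediary metabolism were also among the rising genes. The glutamate dehydrogenase gene glud1b (chromosome 12, 25845494 to 25881945) had 209, 274 and 322 CPM in DMSO, 190, 256 and 477 CPM at 7.87 µM, 150, 312 and 581 CPM at 14 µM, and 291, 448 and 501 CPM at 25.1 µM (lowest, median and highest). At 25.1 µM 5 of 6 pools lay above every DMSO pool, while the 7.87 µM pools had a median just under that of DMSO. Its slope was 0.27 ± 0.09 (SE; unadjusted p = 0.00658). The phosphoglucomutase gene pgm1 had means of 200 ± 32.1, 219 ± 89.9, 281 ± 132 and 311 ± 76.4 CPM from DMSO to 25.1 µM (SD, n = 6 each). They stood in rising order with 5 of 6 pools at 25.1 µM above every DMSO pool, and a slope of 0.27 ± 0.10 (SE; unadjusted p = 0.0112). The sodium pump gene atp1a1a.4, of ionocytes, had a slope of 0.36 ± 0.13, which was 0.56 in the first set of columns and 0.12 in the last. Further genes in rising order were ldb3b, of the muscle Z-disc, with a slope of 0.25 ± 0.10, the mitochondrial rRNA methyltransferase gene mrm3b with 0.39 ± 0.16, and the pentraxin gene crp2 with 0.66 ± 0.27 (SE). For crp2 2 of 6 pools at 25.1 µM lay above every DMSO pool, of which pool E was the highest at 9.25 CPM.

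On the falling side the smallest p within these limits belonged to cables2b (chromosome 23, 9088191 to 9137649), whose mammalian relatives bind the kinases CDK5 and ABL. Its lowest, median and highest level was 2.06, 2.65 and 3.32 CPM in DMSO, 1.77, 2.17 and 3.13 CPM at 7.87 µM, 0.741, 2.1 and 2.73 CPM at 14 µM, and 0.62, 1.36 and 1.91 CPM at 25.1 µM. All 6 pools at 25.1 µM lay below all 6 DMSO pools, and the median was lower at each step. The slope was -0.41 ± 0.12 (SE; unadjusted p = 0.00173, adjusted p = 1), with -0.51 in the first set of columns and -0.26 in the last. The gene for the cell cycle repressor e2f7 had means of 4.32 ± 1.41, 3.73 ± 0.903, 3.18 ± 1.04 and 2.54 ± 0.931 CPM from DMSO to 25.1 µM (SD, n = 6 each) and a slope of -0.31 ± 0.11 (SE; unadjusted p = 0.00864). Of its 6 pools at 25.1 µM, 5 lay below every DMSO pool.

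The other 8 of these 10 falling genes have different known roles. They were the endosome genes rabep2 and rab9a, with slopes of -0.25 ± 0.09 and -0.26 ± 0.10, the ethanolamine kinase gene etnk1, of phospholipid synthesis, with -0.17 ± 0.07, and pdzd8, of contacts between the endoplasmic reticulum and other organelles, with -0.14 ± 0.06 (SE). The list also held gli3, a transcription factor of hedgehog signalling, with -0.23 ± 0.10, the GDNF co-receptor gene gfra1b with -0.34 ± 0.14, the orphan receptor gene GPR151, known from habenula neurons, with -0.55 ± 0.19, and the secreted protease gene HTRA3 with -0.37 ± 0.15 (SE). Their unadjusted p ran from 0.00752 for GPR151 to 0.028 for pdzd8. Not all fell at each step: the mean at 7.87 µM was above that of DMSO for GPR151 (3.67 against 2.88 CPM), HTRA3 (2.52 against 2.43) and rab9a (2.61 against 2.54). Pool H was the highest at 7.87 µM for each of them. For gli3 the means were 4.59 ± 1.00, 4.28 ± 0.625, 3.82 ± 1.1 and 3.08 ± 1.12 CPM from DMSO to 25.1 µM (SD, n = 6 each), in falling order. Further genes in falling order were the ubiquitin ligase gene trim23, the GTPase-activating gene gmip, the kinase genes tnk2a and pim3, and mfap3l, with slopes of -0.18, -0.16, -0.26, -0.14 and -0.13. For trim23 5 of 6 pools at 25.1 µM lay below every DMSO pool, with a range of 4.85 to 6.41 CPM at 25.1 µM and 6.11 to 10.1 CPM in DMSO.

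The smallest slope p of all belonged to BX537263.3 (chromosome 5, 817016 to 822282), a protein-coding gene with no descriptive symbol. It had 0.399, 7.88 and 146 CPM in DMSO, 0.742, 4.22 and 48.4 CPM at 7.87 µM, 0, 2.24 and 9.07 CPM at 14 µM, and 0.736, 2.08 and 4.46 CPM at 25.1 µM (lowest, median and highest). The highest pool was E in DMSO and A at 7.87 µM, and every group reached down to below 1 CPM. Its slope was -1.67 ± 0.38 (SE; unadjusted p = 0.000103, adjusted p = 1). The next smallest p was that of nr5a5, a nuclear receptor gene below the level set for named genes and picked out after its values were seen. It had medians of 0.62, 1.32, 1.32 and 3.58 CPM from DMSO to 25.1 µM and a slope of 0.82 ± 0.22 (SE; unadjusted p = 0.000739).

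The second description was the order of the 4 group means of log2 CPM. They stood in strictly rising order in 670 genes (3.23%) and in strictly falling order in 546 (2.63%). Of these, 63 (0.304%) and 43 (0.207%) also had a slope with an unadjusted p under 0.05. The order of means largely fixes the sign of the slope, so the slopes of these sets show only size. The median slope was 0.192 in rising order and -0.128 in falling order. The widest step of a rising order was that from DMSO to 7.87 µM in 244 of the 670 genes, that between 7.87 and 14 µM in 148, and that between 14 and 25.1 µM in 278. The middle step also spans the smallest difference in concentration, so these counts do not show a shape other than a line. In the 546 genes in falling order the widest step was the first in 198, the second in 157 and the last in 191. Muscle and digestive organ genes stood in rising order more often than in falling order. Skeletal muscle genes made up 22 of the 670 and none of the 546, of 78 muscle genes tested, and genes of the liver, exocrine pancreas and intestine lists made up 30 of the 670 and none of the 546, of 123 tested.

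Gene lists, chosen with earlier results of these data known, describe the slopes by tissue and pathway and were not tested. The steepest median slopes were those of organs behind the head. Of 67 tested liver genes 64 had a positive slope, against 9454 of all 20723 (45.6%), with a median of 0.44, against -0.01 for all genes. All 21 exocrine pancreas genes tested, of 30 listed, and 31 of 35 intestine genes, of 45 listed, were positive, with medians of 0.52 and 0.33. At an unadjusted p under 0.05 rising slopes were found in 6 liver, 5 pancreas and 1 intestine gene, with no falling one, against 0.676% of all tested genes with a rising slope at this p; 1 of 35 intestine genes is too few to read. Of the liver genes, the apolipoprotein gene apoc2 had means of 2.51 ± 3.07, 3.77 ± 4.31, 5.58 ± 5.26 and 7.91 ± 7.07 CPM from DMSO to 25.1 µM (SD, n = 6 each) and a slope of 0.67 ± 0.29 (SE; unadjusted p = 0.0293). The complement gene c8a and the thyroid hormone carrier gene ttr had slopes of 0.74 ± 0.33 and 0.59 ± 0.28 (SE; unadjusted p = 0.0317 and 0.0394). The pancreatic protease gene ctrb1 had 17.9, 24.8, 39.5 and 89 CPM as group medians from DMSO to 25.1 µM, and a slope of 0.75 ± 0.33 (SE; unadjusted p = 0.0298). The liver gene fabp10a did not keep to this order, with medians of 3.65, 21.3, 27.2 and 20.8 CPM and a slope of 0.66 ± 0.36 (SE; unadjusted p = 0.0752).

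Pools of 1 group differed more in these organ genes than the groups did. The mean log2 CPM of the liver list had a lowest, median and highest value of 1.48, 1.87 and 3.59 in DMSO, 1.3, 2.58 and 4.12 at 7.87 µM, -0.27, 3.03 and 4.84 at 14 µM, and 2.39, 3.49 and 3.91 at 25.1 µM. The median was higher at each step, but the 14 µM pools held both the lowest and the highest value of all 24. The slope of this mean was 0.42 ± 0.26 (SE, n = 24), with 0.47 in the first set of columns and 0.28 in the last. Leaving out DMSO pool E moved it to 0.52, and leaving out 25.1 µM pool E to 0.37. The exocrine pancreas list had medians of 0.07, 0.27, 0.76 and 1.55 and a slope of the mean of 0.48 ± 0.31 (SE), with 0.51 and 0.45 in the first and last set of columns. Its group means were 0.149, 0.169, 0.17 and 1.35 from DMSO to 25.1 µM, so they were near level up to 14 µM and higher only at 25.1 µM. In pooled heads, fewer cells of a type and less RNA per cell cannot be told apart. The hox genes, transcription factors that mark position along the body, were set beside the organ genes in lists added after their values had been seen. Those of groups 6 to 9, active in the trunk and not in the brain, had positive slopes in all 5 tested of 12 listed, with a median of 0.28, and those of groups 4 and 5, active from the hindmost hindbrain back, in 6 of 8, with a median of 0.16. For hoxb8a the means were 0.354 ± 0.306, 0.403 ± 0.302, 0.748 ± 0.605 and 1.31 ± 1.03 CPM from DMSO to 25.1 µM (SD, n = 6 each), with a slope of 0.81 ± 0.26 (SE; unadjusted p = 0.00343). The list means of log2 CPM from DMSO to 25.1 µM were -1.64, -0.868, -0.838 and -0.634 for groups 6 to 9, all low. For groups 4 and 5 they were 0.828, 1.41, 1.23 and 1.38. In both lists the widest step was that from DMSO to 7.87 µM. The slope of the mean of groups 6 to 9 was 0.512 in the first set of columns and 0.147 in the last. The hox genes of groups 1 to 3 had 5 of 8 positive slopes with a median of 0.02. Only 1 of 9 hox genes of groups 10 to 13, the hindmost, was tested, with a slope of 0.015 at 4 dpf and 0.3 at 5 dpf, so it did not follow the order of the other groups. Their part in the organ slopes was not tested.

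**Figure D2:**
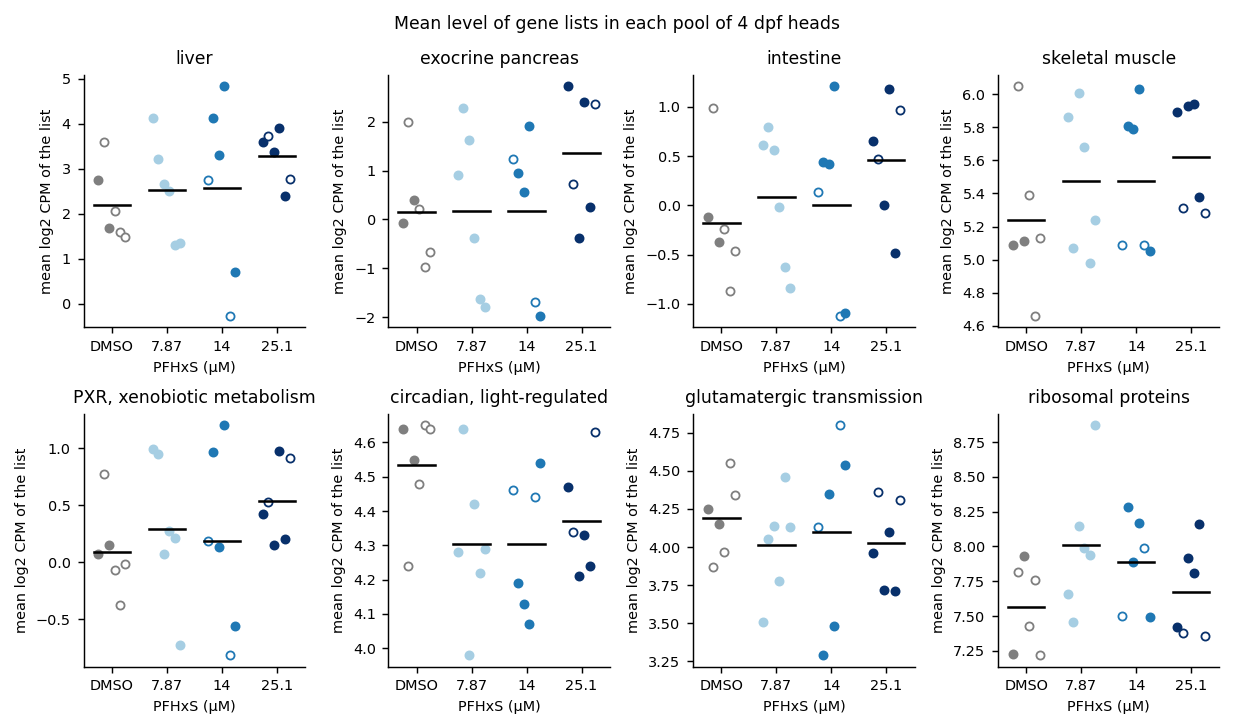
Mean log2 CPM of 8 gene lists in each pool against PFHxS, with 6 pools a group, a line at the group mean and open points for pools from the last 16 columns of the count table. The liver, pancreas and intestine lists have their highest group mean at 25.1 µM, with pools of all 4 groups overlapping.

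Lists of chemical sensing and of metabolism had positive medians of smaller size. In the list of PXR and xenobiotic metabolism 41 of 56 tested genes had a positive slope with a median of 0.14, and 5 had an unadjusted p under 0.05, all rising, against 0.676% of all tested genes. The slope of the mean of this list was 0.159 ± 0.122 (SE). Its group means of log2 CPM were 0.09, 0.294, 0.185 and 0.533 from DMSO to 25.1 µM, not in rising order. The highest pools of this list were E, A, D and E from DMSO to 25.1 µM, the same pools as for the liver list. Whether its slope is separate from that of the liver genes was not tested. The gene of the receptor itself, nr1i2, had a slope of -0.08 ± 0.16 (SE; unadjusted p = 0.628). In the list of PPAR targets and fatty acid oxidation 37 of 55 were positive with a median of 0.06, and only cyp4v8, a P450 of fatty acid hydroxylation, had an unadjusted p under 0.05, at 0.69 ± 0.32 (SE). The receptor genes pparaa, pparab and pparg had slopes of 0.08 ± 0.13, -0.24 ± 0.17 and 0.21 ± 0.13, and the PPAR target genes angptl4 and cpt1b of 0.07 ± 0.14 and 0.14 ± 0.11 (SE). In amino acid catabolism 45 of 56 were positive with a median of 0.13, including the urocanase gene uroc1 at 0.55 ± 0.27 (SE; unadjusted p = 0.0477), while arg1, an arginase gene with at most 0.476 CPM, had a slope of -0.67 ± 0.30 (SE; unadjusted p = 0.0304). The aryl hydrocarbon receptor list had 9 positive slopes of 16 and a median of 0.03. Its best known target, cyp1a, had medians of 1.49, 1.6, 1.71 and 3.74 CPM from DMSO to 25.1 µM and a slope of 0.50 ± 0.26 (SE; unadjusted p = 0.0627). Heat shock and chaperone genes had 28 positive slopes of 34, with a median of 0.06 and none under an unadjusted p of 0.05. The glucocorticoid target gene fkbp5 had a slope of 0.06 ± 0.16 (SE).

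Skeletal muscle genes of the head had positive slopes that were mostly small. Of 78 tested muscle genes 67 had a positive slope, with a median of 0.11, and 22 (against 3.23% of all genes) were in rising order. The actin gene acta1b had 1053, 1354 and 1973 CPM in DMSO, 754, 2041 and 2340 CPM at 7.87 µM, 1166, 2154 and 3327 CPM at 14 µM, and 1347, 2476 and 2851 CPM at 25.1 µM (lowest, median and highest). Its median was higher at each step and 4 of 6 pools at 25.1 µM lay above every DMSO pool, with a slope of 0.24 ± 0.11 (SE; unadjusted p = 0.0304). The slope of the mean of the muscle list was 0.24 in the first set of columns and -0.02 in the last. Ionocyte and kidney genes had 39 positive slopes of 54, with a median of 0.10. Cartilage and bone genes had 36 of 66 and a median of 0.01, and skin genes 23 of 43 and a median of 0.01.

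Several brain lists had small slopes with fewer positive ones than the 45.6% of all tested genes. Of 52 genes of glutamatergic transmission 8 had a positive slope, with a median of -0.05, and of 48 synaptic vesicle genes 10 did, with a median of -0.04. Voltage-gated channels had 19 of 60 with a median of -0.04, GABA and glycine transmission 13 of 46 with -0.03, and myelin genes 5 of 25 with -0.05. No gene of these 5 lists had an unadjusted slope p under 0.05. Monoaminergic genes, with 20 positive slopes of 48 (41.7%), and immediate early genes, with 19 of 47 (40.4%), lay near the share of all genes, and the serotonin receptor gene htr1ab was their only member with an unadjusted slope p under 0.05, at -0.62 ± 0.29 (SE; unadjusted p = 0.043). The release site gene rims2b had means of 25.2 ± 3.26, 27.6 ± 6.89, 22.3 ± 3.45 and 21 ± 2.90 CPM from DMSO to 25.1 µM (SD, n = 6 each) and a slope of -0.13 ± 0.07 (SE; unadjusted p = 0.0612). For the glutamatergic list the slope of the mean was -0.11 in the first set of columns and 0.08 in the last, and for synaptic vesicle genes -0.08 and 0.08. For voltage-gated channels it was -0.09 and 0.11, and for GABA and glycine transmission -0.06 and 0.12, so in these lists the sign depended on the set. For myelin genes it was -0.08 and -0.03. Circadian clock and light-regulated genes had 12 positive slopes of 48, with a median of -0.06. The slope of their mean was -0.0552 ± 0.0433 (SE), with -0.07 and -0.01 in the first and last set of columns. Their group means of log2 CPM were 4.53, 4.31, 4.31 and 4.37 from DMSO to 25.1 µM. The means of the exposed groups lay below that of DMSO but did not fall further with concentration. The pools of all groups overlapped: they ran from 4.24 to 4.65 in DMSO, 3.98 to 4.64 at 7.87 µM, 4.07 to 4.54 at 14 µM and 4.21 to 4.63 at 25.1 µM. The clock gene cry1ba had medians of 55, 44.4, 48.1 and 44.8 CPM from DMSO to 25.1 µM, with 5 of 6 pools at 25.1 µM below every DMSO pool and a slope of -0.11 ± 0.06 (SE; unadjusted p = 0.084). Phototransduction genes had 36 positive slopes of 77 and a median of -0.0017.

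**Figure D3:**
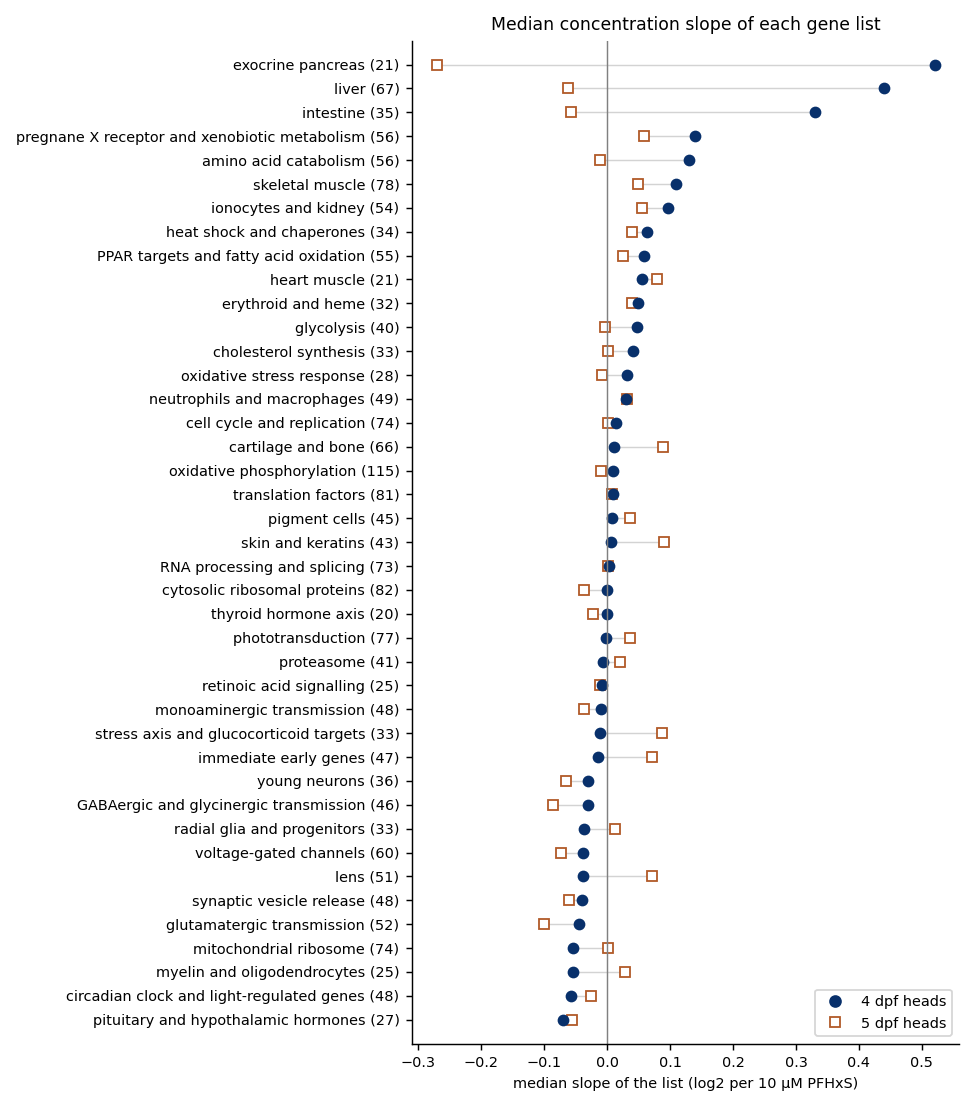
Median slope of each gene list (log2 change per 10 µM PFHxS) at 4 dpf, filled circles, and at 5 dpf, open squares, for lists with at least 20 tested genes, whose number stands in brackets. Exocrine pancreas, liver and intestine lie farthest to the right at 4 dpf, at 0.52, 0.44 and 0.33, and left of 0 at 5 dpf.

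The third question was whether the groups departed from a straight line. By the quasi-likelihood F test on 2 degrees of freedom 0 genes (0%) passed an adjusted p under 0.05, and 1255 (6.06%) had an unadjusted p under 0.05. The highest mean of these 1255 genes was at 7.87 µM in 958, against 6037 (29.1%) of all tested genes. A difference of any kind among the 4 groups was called in 0 genes (0%) after adjustment. At an unadjusted p under 0.05 there were 840 (4.05%), under the 1 of 20 given by chance. Much of the departure count rested on 1 pool. In 755 of the 1255 genes pool H was the highest of the 6 pools at 7.87 µM, and without pool H the count was 552, of which 270 were highest at 7.87 µM. Without pool B at 7.87 µM it was 2167. With a term for the set of columns the count was 437. All 7.87 µM pools lie in the first set, so a level particular to 7.87 µM and the set of columns cannot be fully told apart.

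The 5 genes with the smallest departure p, within the same limits of symbol and level, were sri, rrm2, sparc, rpl5a and pitpnaa, which encode the calcium-binding protein sorcin, a subunit of ribonucleotide reductase, a matrix protein of bone and cartilage, a ribosomal protein and a phosphatidylinositol transfer protein. For sri the lowest, median and highest level was 4.59, 5.47 and 9.1 CPM in DMSO, 7.44, 9.55 and 28.3 CPM at 7.87 µM, 4.15, 5.43 and 9.07 CPM at 14 µM, and 3.51, 5.3 and 7.96 CPM at 25.1 µM. Pool H was the highest of its group for each of these 5 genes. Without it the mean of sri at 7.87 µM was 9.27 ± 1.38 CPM (SD, n = 5), still above the other group means of 5.42 to 5.90 CPM, and its unadjusted p for departure by edgeR was 0.00805, against 0.000237 with pool H. For rrm2 the highest value at 7.87 µM was 180 CPM, the mean without pool H 36.4 ± 9.94 CPM (SD, n = 5), and the unadjusted p by edgeR 0.0526, against 0.000502 with it. Ribosomal protein genes were the list with most such genes: 29 of 82 had an unadjusted departure p under 0.05, and 25 of 82 without pool H. The mean log2 CPM of this list had medians of 7.59, 7.97, 7.94 and 7.61 from DMSO to 25.1 µM. Both middle medians lay above both end medians, but the pools of all groups overlapped. The highest pool value, 8.87, was that of pool I at 7.87 µM, and the slopes of the list had a median of 0.00027. In the mitochondrial ribosome 20 of 74 genes departed and 6 without pool H, in oxidative phosphorylation 19 of 115 and 12, and in the proteasome 12 of 41 and 2. Over all 20723 tested genes the counts were 1255 (6.06%) with pool H and 552 without it.

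**Figure D4:**
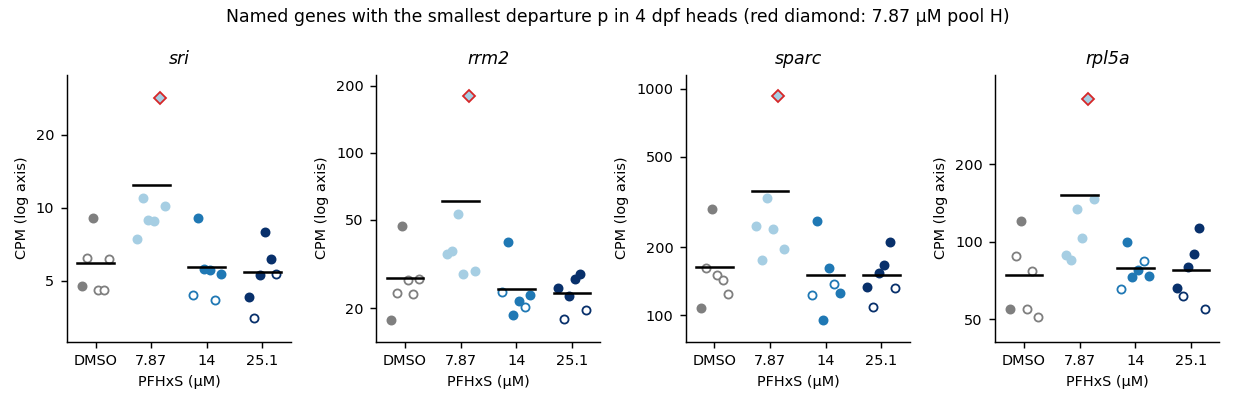
CPM on log axes against PFHxS for 4 of the 5 named genes with the smallest departure p, with 1 point per pool, 6 pools a group, and a line at the group mean. The red diamond, pool H at 7.87 µM, is the highest point of its group in each panel, at 28.3 CPM for sri and 180 CPM for rrm2.

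**Figure D5:**
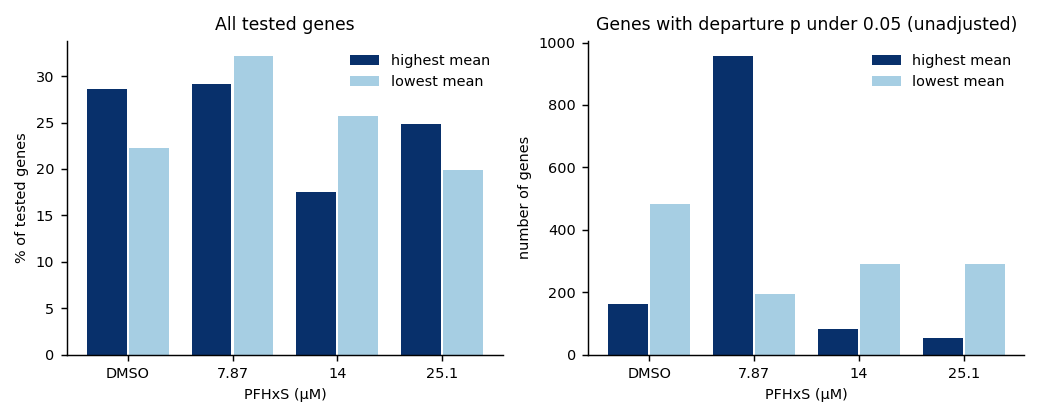
Percentage of all 20723 tested genes (left) and number of the 1255 genes with an unadjusted departure p under 0.05 (right) whose highest or lowest group mean lay in each group. Of the 1255 genes 958 were highest at 7.87 µM, 163 in DMSO, 82 at 14 µM and 52 at 25.1 µM.

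The last comparison set the slopes at 4 dpf beside those of the 24 libraries at 5 dpf, which had the same 4 groups of 6 pools and the same vehicle. No gene differed in slope between the ages after adjustment: 0 genes (0%) in 1 edgeR model of all 48 libraries, with 301 (1.45%) at an unadjusted p under 0.05, and 0 by DESeq2, with 392. In that model 581 genes (2.80%) had an unadjusted slope p under 0.05 at 4 dpf and 162 (0.782%) at 5 dpf. The model estimates the spread of each gene over both ages together, as do its tests of slope differences. The fit of the 24 libraries at 4 dpf alone gave 238 genes (1.15%), so these counts do not rank the ages by strength of response. Of the 140 genes with a rising slope at an unadjusted p under 0.05 at 4 dpf, 62 (44.3%) had a slope above 0 at 5 dpf, against 52% of all tested genes. An unadjusted p under 0.05 and the same sign at 5 dpf were found in 3 of the 140, against 98 of all 20723 tested genes. Of the 98 falling ones 55 (56.1%) were above 0 at 5 dpf, and 1 had an unadjusted p under 0.05 and the same sign there. Organ lists had the other sign at 5 dpf: the medians at 4 dpf and 5 dpf were 0.44 and -0.06 for liver, 0.52 and -0.27 for exocrine pancreas, and 0.33 and -0.06 for intestine. In liver 8 of 67 genes differed in slope between the ages at an unadjusted p under 0.05, in exocrine pancreas 3 of 21 and in amino acid catabolism 7 of 56. The hox genes of groups 6 to 9 had positive slopes in 5 of 5 at 4 dpf and in 0 of 5 at 5 dpf. Glutamatergic genes had a median of -0.05 at 4 dpf and -0.10 at 5 dpf, with 8 and 6 positive slopes of 52.

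Among named genes the smallest p for a difference of slope belonged to six7, a homeobox gene that green cones need for their opsin. Its medians were 47, 41.7, 36.8 and 38.8 CPM at 4 dpf from DMSO to 25.1 µM. The slope was -0.12 ± 0.07 (SE; unadjusted p = 0.0934) at 4 dpf and 0.28 at 5 dpf (unadjusted p = 5.73e-05), a difference of -0.40 ± 0.09 (SE; unadjusted p = 5e-05, adjusted p = 1 by edgeR). The glucokinase gene gck, of liver, had means of 4.72 ± 5.95, 6.81 ± 8.40, 14.8 ± 19.6 and 14.7 ± 15.2 CPM from DMSO to 25.1 µM at 4 dpf (SD, n = 6 each), with slopes of 0.71 ± 0.40 (SE) at 4 dpf and -0.85 at 5 dpf and a difference of 1.57 ± 0.52 (SE; unadjusted p = 0.00362). The zinc finger gene plag1 had slopes of -0.27 ± 0.12 (SE) at 4 dpf and 0.12 at 5 dpf. Of the genes described above, cyp2aa1 differed by 0.63 ± 0.23 (SE; unadjusted p = 0.00953), with a slope of -0.15 at 5 dpf.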

How the data were processed

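Heads of 4 dpf zebrafish larvae were profiled as polyA RNA in 24 libraries, 4 groups of 6. The table of expected counts deposited by the authors covers 25445 genes with unscaled estimates, and a further table deposited by the authors gives log2 values, quantile-normalized, of 19844 genes. Per the submitters' processing notes, STAR 2.5.3a, Partek 8.0.19.0428 and the build GRCz11 were used; the role of each, the annotation and the handling of strand or shared reads are not given in the sources used here. Every column was matched to a sample by its title.

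Expected counts were rounded to whole numbers, filtered with filterByExpr on all 8 groups (20723 genes kept), scaled by TMM over the 48 libraries and tested with edgeR 4.0.16 in R 4.3.3: a linear term in concentration, 2 terms for departure from it, and 1 model of both ages for the difference of slopes. The Benjamini-Hochberg adjustment ran over all tested genes, with a threshold of 0.05. CPM are TMM-scaled, log2 CPM have a prior count of 2, and slopes within a set of columns are least squares on log2 CPM. SEs of slopes follow from the F statistic. Library totals of 17.1 to 39.2 M set the counting error, which is largest for low genes: 7144 of the 20723 tested genes average under 1 in log2 CPM.

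The genes named were drawn from those with a descriptive symbol and a mean log2 CPM from 1 upwards: the 10 rising and 10 falling with the smallest slope p, 5 more in each strict order of means, 5 by departure and 3 by age difference, with 11 genes fixed by name, up to 4 members of each list whatever their level, and the gene with the smallest slope p; 2 genes are not reported here, and not every list member is described. The libraries, gene lists and tests were chosen with earlier results of these data known. Alternatives used DESeq2 1.42.0, limma 3.58.1 on log2(quantile value + 1), sva 3.50.0, other scalings, filters and concentration scales, the replicate letter or column set as a term, and each library left out. No 2 libraries agreed within sampling noise.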

Additional observations from a re-analysis of the deposited data

Results flagged for a closer look

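Within each group of 6 pools, 38 named genes and 15 list means were checked for a pool set apart from the others. The rule was a gap to its neighbour over 0.625 of the range of its group, both taken in log2 CPM. Chance gives this in about 1 of 20 groups, and 11 of 212 groups had one. Values of genes are printed here as CPM, on which the gaps take other shares of the range. High pools were DMSO G for e2f7, at 7.18 CPM against 3.5 to 3.95 CPM in the other 5, 25.1 µM E for pdzd8, at 17.5 against 13 to 14.1 CPM, 7.87 µM H for sri and rrm2, at 28.3 against 7.44 to 11 CPM and 180 against 28.4 to 53.2 CPM, and 14 µM B for rrm2, at 39.5 against 18.7 to 23.6 CPM. Low pools were 25.1 µM H for pgm1, at 171 against 291 to 391 CPM, DMSO H for ldb3b, at 11.1 against 21 to 29.9 CPM, 7.87 µM B for six7, at 30.2 against 39.5 to 44.2 CPM, and 14 µM D for BX537263.3, at 0 against 2.15 to 9.07 CPM. Among list means of log2 CPM, DMSO H was low for ionocyte and kidney genes, at 1.97 against 2.29 to 2.48, and 25.1 µM F was high for phototransduction genes, at 5.86 against 5.18 to 5.34.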

How the results depend on the processing

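Under 18 other settings and 24 fits that each left out 1 library, 0 genes passed the adjusted threshold for a slope, except 1, pimr93, with no filter on low counts (slope -2.45, adjusted p = 0.00593 by edgeR). The number of genes at an unadjusted slope p under 0.05, 238 as reported, was 129 with a minimum of 1 CPM in 6 libraries, 836 with no filter, 746 with surrogate variables, 981 without DMSO, 391 without 25.1 µM, 581 with all 48 libraries in the model, and 183 to 406 with 1 library left out. For departure from a line 0 genes passed under every setting tried, and the number at an unadjusted p under 0.05, 1255 as reported, was 1913 with no filter, 437 with the column set as a term, and 552 to 2167 with 1 library left out. With the replicate letter as a block it was 2572, and the slope count was 197, with 0 genes adjusted in both. Same-letter pools of other groups had a median correlation of 0.34 in their deviations from group means, with a lowest of -0.11. Other-letter pools had a median of -0.058, from -0.65 to 0.59, so same-letter pools were more alike as a set. In addition, 10 of 24 libraries correlated best with their own letter. What the letters mark is not given, so the main fits left them out, and pools of the same letter may not be independent. The numbers of genes in rising and falling order stayed within 471 to 833 and 433 to 712 with 1 library left out, within 1.5 times of those reported, as under the other settings tried. Signs of slopes were compared only for genes named by slope p or order of means and those fixed by name. Most of these were picked for a small slope p. Other named genes, and the fits on quantile values and on the log concentration scale, were not compared. Slopes of the compared genes turned sign in 6 fits, each of a gene with an unadjusted p above 0.1: pparab without DMSO (0.0565), pparg without 25.1 µM (-0.0818), angptl4 with surrogate variables (-0.0153), and fkbp5 with surrogate variables (-0.00396), without 25.1 µM (-0.0182) and, of -0.0407 to 0.138 with 1 library left out, without 25.1 µM pool B. Their cause was not tested. How far depth limits the slopes was not tested; 128 of the 238 genes average under 1 in log2 CPM.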
